A study of Mus musculus with 8 samples.

Results

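The genes described here are the mouse zinc finger protein genes whose symbol is Zfp followed by a whole number of at most 500. The platform annotation gave 139 such genes, represented by 279 probe sets that carry a single gene symbol, and Zfp36, which encodes an RNA-binding protein of another family, was left out by the rule. They were 139 of 18193 genes on the array that had such a probe set. Of the 139, 113 had a probe set bright enough to be tested, of 11754 genes tested in all. The members are set by name and not by signal, but the group was chosen with earlier results of these data known.

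Most of these genes encode proteins that carry C2H2 zinc fingers, short folds in which cysteines and histidines hold a zinc ion and the fold contacts a few bases of DNA. Many of the proteins join a string of such fingers to a KRAB domain, which recruits the scaffold protein TRIM28 and, through it, enzymes that methylate histone H3 and DNA, so that KRAB zinc finger proteins mostly act as repressors, often of retrotransposons and imprinted genes. Others lack a KRAB domain and act as activators, cofactors, RNA-binding proteins or ubiquitin and SUMO ligases, so the shared symbol marks a kind of fold and not a shared task.

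RNA came from germinal centre B cells, the B lymphocytes that divide and change their antibody genes during an immune response. They were sorted from spleens of 8-week-old GFPMYC/C57BL6 mice, in which GFP is fused to MYC, taken 12 days after immunization with sheep red blood cells. PNAhi/CD95hi cells were parted by GFP into 4 MYC-positive and 4 MYC-negative samples, all from animals with the GFPMYC allele, and the sample descriptions name 4 pairs. The sample titles call each sample a biological replicate. The protocol speaks of a sort per mouse and the design text of pools, so it is not known whether a pair stands for 1 animal. If the pairs were drawn from a shared pool, the p-values may cover technical spread alone. The comparison addresses how germinal centre B cells with and without MYC protein differ.

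Each sample was hybridised to 1 Affymetrix array, and the values are array signals on a linear scale whose mean, with 2% trimmed at each end, was between 495 and 497 on every array. Myc itself had a geometric mean signal of 663 in MYC-positive and 92.9 in MYC-negative samples, a difference of 2.83 on the log2 scale (SE 0.28, limma adjusted p = 0.00069), which checks the sort. The B cell genes Cd79a, Cd79b, Ms4a1 and Cd22 had geometric mean signals from 3873 to 14207 in the fractions, with Cd22 lower in MYC-positive cells, and their summed signal was 34299 to 41862 in MYC-negative and 27188 to 34765 in MYC-positive samples. Of 4 germinal centre genes Fas and Mybl1 were lower and Bcl6 and S1pr2 did not pass. The T cell genes Cd3e, Cd3d, Cd3g and Cd4 and the erythroid genes Hba-a1 and Alas2 stayed below the level needed for testing. Cd8a, a further T cell gene, was tested and did not pass (difference -0.52, limma adjusted p = 0.64). Granulocyte genes on the array had a summed signal of 29.9 to 71.3 on MYC-negative arrays. On MYC-positive arrays it was 29.0 to 567, and S100a8, the only one tested, did not pass. None of the 3 dendritic cell genes tested passed. Flt3, the brightest of them, had a geometric mean of 595 without MYC and 487 with it. The 9 macrophage markers tested, of 10 listed, had a summed signal of 573 to 1447 in MYC-negative and 1185 to 7970 in MYC-positive samples, with 6 higher and 1, Apoe, lower. Of these, C1qa, C1qc, Csf1r and Vcam1 were near 0 in MYC-negative samples, with geometric mean signals of 3.33 to 7.44. Sdc1, of 4 plasma cell markers tested, was higher too. The part of these cells in the Zfp results was not tested, and in bulk samples fewer cells of a type and less RNA per cell cannot be told apart.

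The MYC-positive array of pair 4 stood apart for the Zfp genes. It held the lowest signal of all 8 arrays for 59 of the 113 genes, or 52.2%, whereas it was the lowest array for 25.3% of all genes tested. Over all probe sets it had the lowest median signal, 28.2, where the other 7 arrays had 36.8 to 55.8. Over the genes tested its median was 432, above 409 on the MYC-positive array of pair 3 and 387 on the MYC-negative array of pair 4. It also held the highest signal for 19.2% of all genes tested, more than any other array, and for 10.6% of the Zfp genes. Differences above 0.5 in size that moved by over 1.5 times without pair 4 are given both ways where they are printed.

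**Figure D1:**
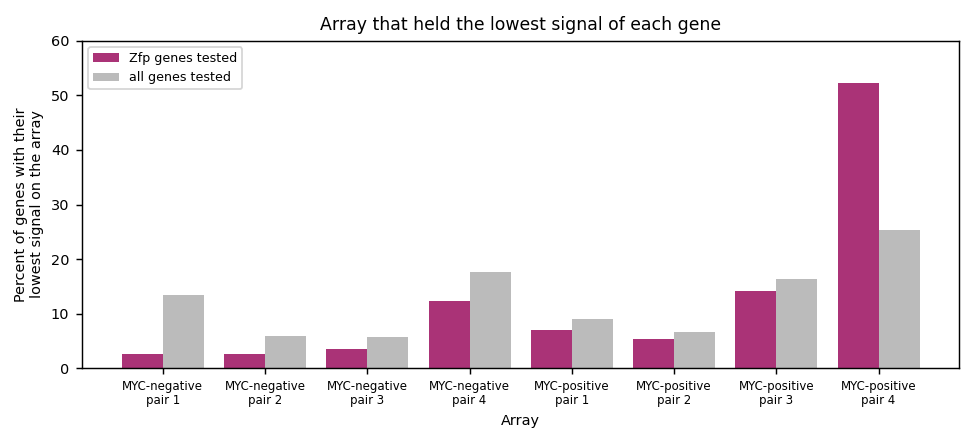
Percent of genes (vertical axis) whose lowest signal of the 8 arrays fell on each array (horizontal axis), for the 113 Zfp genes tested and for all 11754 genes tested. The MYC-positive array of pair 4 held the lowest signal of 52.2% of the Zfp genes, against 25.3% of all genes.

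Few of the Zfp genes passed the test, and on the deposited scale those that did were mostly lower in MYC-positive cells, whereas with arrays centred on their medians 14 were higher and 6 lower. The centred counts are 12.4% higher and 5.31% lower, against 27.3% and 4.65% of all genes. On the deposited scale, 12 of 113 were lower, or 10.6%, and 2 were higher, or 1.77%, at a limma adjusted p under 0.05, while 99 did not pass. Of all genes tested 11.5% were lower and 11.2% were higher, 22.7% in either direction. The share of Zfp genes that were lower was therefore near that of all genes, and the share that were higher was below it. The genes that were lower were Zfp318, Zfp395, Zfp53, Zfp90, Zfp319, Zfp40, Zfp292, Zfp398, Zfp276, Zfp62, Zfp217 and Zfp329, and those that were higher were Zfp2 and Zfp428. At an unadjusted p under 0.05, 26 were lower and 6 higher, and over all genes 19.2% and 17% were.

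On the deposited scale the median Zfp gene lay below 0 and below the median of all genes. With arrays centred on their medians it lay above 0, at 0.16. Centring shifts all genes alike, so the Zfp median was still below that of all genes. The median difference over the 113 genes, MYC-positive minus MYC-negative, was -0.28 on the log2 scale, with the central 50% between -0.62 and 0.02, whereas over all genes tested the median was -0.06 and the central 50% lay between -0.53 and 0.36. The difference was below 0 for 82 of the 113, or 72.6%, against 54.1% of all genes. It was below 0 in each of the 4 pairs for 36 Zfp genes, or 31.9%, and above 0 in each for 9, or 7.96%, where all genes had 23% and 19.3%. The differences of single Zfp genes ran from -1.95 to 1.46.

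**Figure D2:**
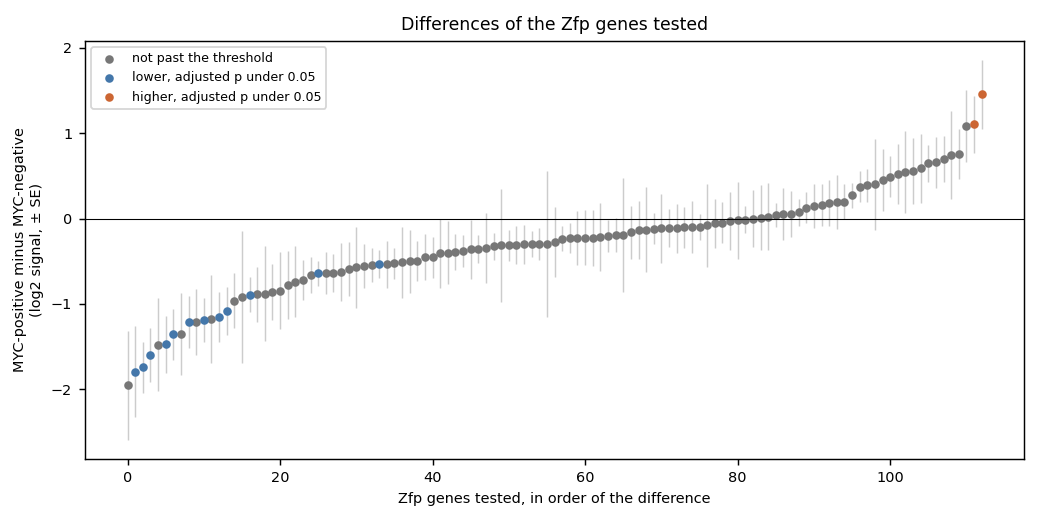
Difference in log2 signal on the deposited scale, MYC-positive minus MYC-negative (vertical axis, bars are the SE from the fit over 4 pairs), of the 113 Zfp genes tested, in order of the difference (horizontal axis). Of the genes, 82 lie below 0; the 12 lower and 2 higher genes past the threshold are coloured.

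The pairs differed in how far the group was shifted. The median of the 113 genes was -0.20 in pair 1, -0.13 in pair 2, -0.32 in pair 3 and -0.51 in pair 4. Over all genes the medians were 0.03, -0.06, -0.20 and 0.00 in the same order. The Zfp genes thus lay below all genes by 0.22, 0.07, 0.11 and 0.51 in the 4 pairs, on the same side each time and farthest in pair 4. Without pair 4 the median of the Zfp genes was -0.22, against -0.08 for all genes, and the counts were 20 lower, or 17.7%, and 3 higher, where 17.3% of all genes were lower and 14.8% higher.

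Zfp318, which encodes a nuclear protein that B cells need to make IgD from the long transcript of the heavy chain locus, fell in every pair. Its signal was 982, 677, 789.8 and 322 in the MYC-negative samples of pairs 1 to 4 and 185, 290.4, 168 and 149.8 in the MYC-positive samples. Every MYC-positive sample was below every MYC-negative sample. The difference was -1.74 (SE 0.30, limma adjusted p = 0.0051), a 3.35-fold lower signal. The other 2 probe sets of Zfp318 that passed the brightness filter gave -1.99 and -1.24. It was the only Zfp gene that passed under each of the 13 alternative settings, with adjusted p from 7.5e-05 to 0.0499.

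Zfp423, which encodes a partner of the B cell factor EBF1 that is known for holding it back, was dim and did not pass. Its signal was 48.2, 15.5, 32.9 and 40.5 in MYC-negative and 7.1, 41, 47.4 and 30.3 in MYC-positive samples, and the groups overlapped. The difference was -0.31 (SE 0.66, limma adjusted p = 0.78).

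Among zinc finger proteins known as transcription factors or cofactors outside the KRAB class, Zfp395, Zfp292, Zfp276 and Zfp217 fell. ZNF395, the human form of Zfp395, was described as a factor that binds papillomavirus and Huntington disease gene promoters. The signal of Zfp395 was 572, 383, 390.4 and 149.7 in MYC-negative and 185, 202, 130.1 and 31.1 in MYC-positive samples. It was lower in the MYC-positive sample of each pair, though the MYC-negative sample of pair 4 lay below 2 of the MYC-positive samples. The difference was -1.60 (SE 0.31, limma adjusted p = 0.0087).

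Zfp292, which encodes a very large protein with many fingers, had signals of 2368, 2172, 2251 and 2296 in MYC-negative and 972, 1330.3, 1464 and 517 in MYC-positive samples. The MYC-negative samples lay close together and all MYC-positive samples were below them, that of pair 4 the lowest. The difference was -1.19 (SE 0.26, limma adjusted p = 0.012), and the differences of the other 5 probe sets of the gene were all below 0, from -1.46 to -0.67.

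Zfp217, whose human form is amplified in breast tumours and works with CtBP and CoREST repressors, was the only one of the 10 Zfp genes with the highest signal to pass the test. Its signal was 4790.1, 4238, 5212 and 4747 in MYC-negative and 3044, 3142, 3745 and 2375 in MYC-positive samples, with no overlap. The difference of -0.64 (SE 0.15, limma adjusted p = 0.016) was one of the smaller ones that passed.

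Zfp276, which encodes a protein with a ZAD domain at its front, had signals of 371, 347, 229 and 119 in MYC-negative and 173, 169.7, 96 and 61.9 in MYC-positive samples. Both samples of pair 4 were the lowest of their group, and the groups overlapped. The difference was -1.08 (SE 0.28, limma adjusted p = 0.025), while its other 3 probe sets ran from -0.94 to 0.25, so they disagreed in sign. 

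Zfp90 and Zfp398, which encode KRAB zinc finger proteins, fell too. The signal of Zfp90 was 163, 203, 149.8 and 90.5 in MYC-negative and 66.4, 58.6, 60.1 and 32.5 in MYC-positive samples. The MYC-positive samples were all below the MYC-negative ones, and the sample of pair 4 was the lowest in each group. The difference was -1.47 (SE 0.33, limma adjusted p = 0.015). Zfp398, whose human form is known as the oestrogen receptor partner ZER6, had signals of 529, 539, 568 and 308 in MYC-negative and 225, 353, 334 and 77.1 in MYC-positive samples. The MYC-negative sample of pair 4 was low and lay within the MYC-positive range, so the groups overlapped. The difference was -1.15 (SE 0.30, limma adjusted p = 0.024), and the other 5 of its probe sets that passed the filter ran from -1.62 to 0.11.

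The other members that fell were Zfp53, Zfp319, Zfp40, Zfp62 and Zfp329. Zfp53 had the largest difference of those that passed. Its signal was 1099, 970.0, 1684 and 1746 in MYC-negative and 619.6, 583, 706 and 84.8 in MYC-positive samples, so that no samples overlapped and the MYC-positive array of pair 4 lay far below its group. The difference was -1.79 (SE 0.53, limma adjusted p = 0.041), and without pair 4 it was -0.94. Its other probe set gave -0.79.

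Zfp319 had signals of 474, 550.0, 649 and 376 in MYC-negative and 178, 306, 137 and 198 in MYC-positive samples. The groups did not overlap, and here the MYC-positive sample of pair 3 was the lowest. The difference was -1.36 (SE 0.30, limma adjusted p = 0.014). The differences of its 3 other probe sets were all below 0, from -1.68 to -0.57.

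Zfp40 had signals of 1976, 1535, 2079 and 1887 in MYC-negative and 1146, 867, 1283 and 322 in MYC-positive samples. The groups did not overlap. The difference was -1.21 (SE 0.31, limma adjusted p = 0.022) and -0.77 without pair 4, where the gene passed as well, and the other 2 of its probe sets that passed the filter gave -1.66 and -1.13.

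Zfp62 had signals of 1122, 999.5, 1194 and 720.2 and 509, 733, 621 and 354, in MYC-negative and then MYC-positive samples, and the MYC-negative sample of pair 4 lay just below the MYC-positive sample of pair 2. The difference was -0.89 (SE 0.21, limma adjusted p = 0.016). Zfp329 had 2775, 2304, 2663 and 2169 in MYC-negative and 1578, 1751, 2242 and 1349.7 in MYC-positive samples, with an overlap between pair 3 and pair 4. Its difference was -0.54 (SE 0.16, limma adjusted p = 0.044), and its 2 other probe sets went opposite ways, at -1.30 and 0.87.

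Zfp2 and Zfp428 were the members that rose. Zfp2 was dim, with signals of 19.8, 29.3, 18.1 and 20.9 in MYC-negative samples, near the filter level of 18.7, and 68.3, 69.4, 41.2 and 64 in MYC-positive samples. No samples overlapped, and the MYC-positive sample of pair 3 was the lowest of its group. The difference was 1.46 (SE 0.40, limma adjusted p = 0.032), and with signals under 32 set to 32 it was 0.89. Zfp428 had signals of 151, 98.8, 75.7 and 128 in MYC-negative and 338, 234, 93.8 and 413 in MYC-positive samples. It was higher in the MYC-positive sample of each pair, by little in pair 3, where the MYC-positive sample lay within the MYC-negative range. The difference was 1.10 (SE 0.33, limma adjusted p = 0.041).

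**Figure D3:**
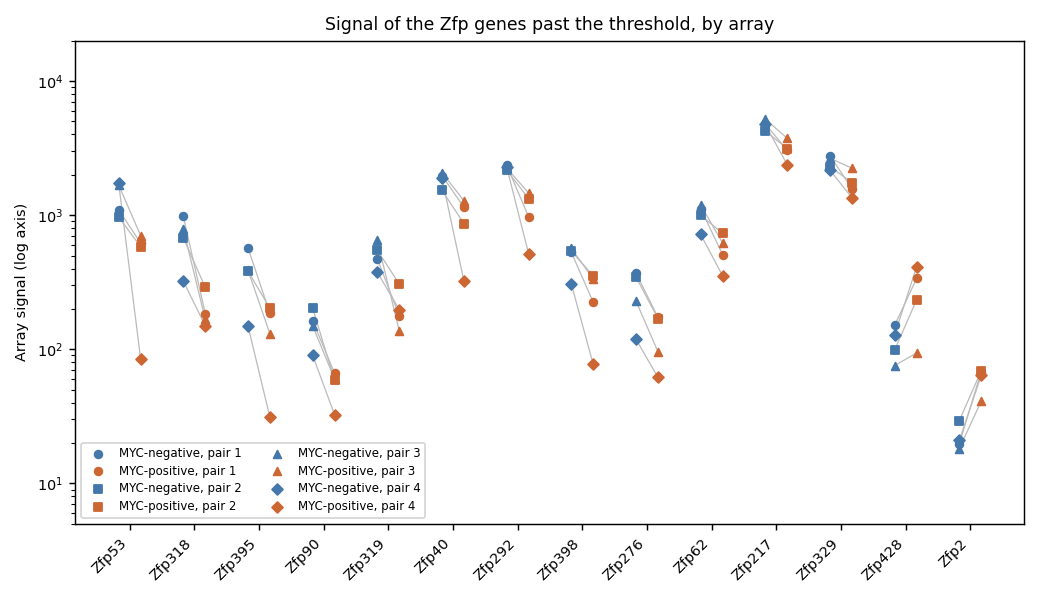
Array signal on a log axis (vertical) of the 14 Zfp genes past the threshold (horizontal, ordered by difference) in each of the 8 samples; marker shapes stand for the 4 pairs and grey lines join the samples of a pair. All lines fall for the 12 genes on the left and rise for Zfp428 and Zfp2, and the MYC-positive sample of pair 4 is far below the others for Zfp53.

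Most of these 14 calls ended under some other setting. The sign of each difference was kept in every alternative in which the gene was tested, but in many of these it could not change. Each of the genes had the same sign in all 4 pairs, so leaving out a pair could not turn it. No pair block, no trend and the other filters leave the difference itself as it was. Without pair 1 only Zfp318 passed, and without pair 2 only Zfp318, Zfp292 and Zfp395 did. Without pair 3 Zfp2, Zfp53, Zfp276 and Zfp329 did not pass, and without pair 4 Zfp428 did not. With no block for the pair, Zfp53, Zfp276, Zfp329, Zfp395, Zfp398 and Zfp428 did not pass. With a signal floor of 32 this held for Zfp40, Zfp53, Zfp398 and Zfp428, with no filter for Zfp2, Zfp53, Zfp329 and Zfp428, with the mean over probe sets for Zfp53, Zfp276, Zfp329 and Zfp398, and with no intensity trend for Zfp40, Zfp53, Zfp217, Zfp292, Zfp329, Zfp398 and Zfp428.

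Adjusted p over the alternatives lay at 0.0015 to 0.091 for Zfp395, 0.0013 to 0.086 for Zfp292, 0.0031 to 0.43 for Zfp217 and 0.0078 to 0.18 for Zfp276. It lay at 0.0067 to 0.10 for Zfp90 and 0.012 to 0.14 for Zfp398. For the others that fell it lay at 0.0015 to 0.13 for Zfp53, 0.0011 to 0.083 for Zfp319, 0.0019 to 0.084 for Zfp40, 0.0042 to 0.14 for Zfp62 and 0.029 to 0.75 for Zfp329, and for those that rose at 0.0066 to 0.14 for Zfp2 and 0.0049 to 0.17 for Zfp428.

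Whether groups overlap gives a view without a model. In 13 Zfp genes, or 11.5%, all MYC-positive samples were below all MYC-negative ones, against 10.9% of all genes, and in 5, or 4.42%, all were above, against 11.1% of all genes. Of the 12 genes that fell, 7 had no overlap and 5 did. The 6 others with all MYC-positive samples below were Zfp287 (difference -1.95, adjusted p = 0.057), Zfp458 (-1.21, 0.051), Zfp157 (-0.89, 0.080), Zfp438 (-0.84, 0.21), Zfp386 (-0.64, 0.072) and Zfp101 (-0.54, 0.078). These were named after their values were seen, as were the 4 besides Zfp2 with all MYC-positive samples above, Zfp248 (1.09, 0.10), Zfp239 (0.76, 0.097), Zfp296 (0.66, 0.14) and Zfp213 (0.65, 0.058). Without pair 4 the differences were -0.75 for Zfp458, -0.41 for Zfp438 and 0.70 for Zfp248. Zfp213, Zfp239, Zfp248 and Zfp296 passed as higher genes after quantile normalization and after median centring. The other 3 probe sets of Zfp248 that passed the filter ran from -1.85 to 0.38, and only 1 of them was above 0.

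Zfp287, which encodes a protein with SCAN and KRAB domains, had a difference of -1.95 over the 4 pairs and -1.02 without pair 4. Its signal was 259, 248, 181 and 143 in MYC-negative and 94.5, 112, 133 and 5.31 in MYC-positive samples. The MYC-positive array of pair 4 was far below the other 3 of its group, and the SE was 0.64. It passed with a 60th percentile filter, without pair 3 and without pair 4.

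Promoter sequence was examined for the letters CACGTG, an E-box that MYC and its partner MAX are known to bind and that reads the same on both strands. RefSeq promoters of build GRCm38.p6, each from 250 bases before to 50 bases after an annotated start, matched 111 of the 139 Zfp genes by gene identifier. Of these 111, tested or not, 6 held CACGTG, or 5.41%, against 8.09% of all 27025 genes in the same promoter table. The 20 untested Zfp genes among them held none. Of the tested ones 6 held the letters and 85 did not, where 11.8% of 9518 genes tested with a promoter in the table held them. The 6 were Zfp292, Zfp207, Zfp365, Zfp59, Zfp296 and Zfp202. Of the 8 genes that fell and had a promoter in the table, 1 held the letters, Zfp292, and the 2 that rose did not. Over the 4 pairs the median difference was 0.23 for the 6 genes with the letters and -0.28 for the 85 tested genes without them. The value for the 6 depended on pair 4. Without that pair their differences were 1.16 for Zfp202 (0.74 with it), 0.56 for Zfp296 and 0.10 for Zfp365. Below 0 were Zfp59 at -0.23, Zfp207 at -0.39 and Zfp292 at -0.87. The matching is a description of letters in a window and says nothing of binding.

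The 100 bases before the start are shown, 5′ to 3′ on the strand of the gene and with CACGTG in capitals, for the 4 genes with the letters upstream of the start, and for Zfp318, which passed in every alternative and had none. Zfp318 lies on the + strand at chr17:46383666-46383765, Zfp292 on the - strand at chr4:34882949-34883048, Zfp207 on the + strand at chr11:80383179-80383278, Zfp365 on the - strand at chr10:67912663-67912762 and Zfp59 on the + strand at chr7:27838484-27838583, all as RefSeq gives them on GRCm38.p6.
Zfp318: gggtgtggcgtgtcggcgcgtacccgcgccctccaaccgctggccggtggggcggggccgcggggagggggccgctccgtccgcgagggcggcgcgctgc
Zfp292: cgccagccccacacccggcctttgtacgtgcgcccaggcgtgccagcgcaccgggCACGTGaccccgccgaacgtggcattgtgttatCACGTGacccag
Zfp207: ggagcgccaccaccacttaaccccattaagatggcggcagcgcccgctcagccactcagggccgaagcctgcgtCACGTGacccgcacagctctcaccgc
Zfp365: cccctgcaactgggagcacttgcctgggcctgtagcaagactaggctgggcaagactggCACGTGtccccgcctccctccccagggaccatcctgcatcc
Zfp59: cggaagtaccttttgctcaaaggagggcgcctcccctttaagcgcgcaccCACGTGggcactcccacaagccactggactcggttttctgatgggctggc
Zfp292 held the letters at 2 places, both close to the start, and the other 3 genes at 1 place each. Zfp207 differed by -0.72, Zfp365 by 0.05 and Zfp59 by 0.40 (-0.23 without pair 4), and none of these passed, while Zfp292 fell.

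Zfp207, which encodes BuGZ, a protein of the mitotic spindle that loads BUB3 on kinetochores, missed the threshold narrowly. Its signal was 6142, 4837, 6470.1 and 7719 in MYC-negative and 4357, 3570.0, 5529 and 2351 in MYC-positive samples. It was lower in the MYC-positive sample of each pair, by far the most in pair 4, and the groups overlapped. The difference was -0.72 (SE 0.23, limma adjusted p = 0.053) and -0.39 without pair 4, where it passed (adjusted p = 0.043, 0.0075 to 0.39 over the alternatives). It also passed without pair 3, after quantile normalization, with a 60th percentile filter and with the mean over probe sets. The other 5 probe sets of Zfp207 that passed the filter ran from -1.35 to 0.10, and 4 of them were below 0.

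Zfp410, known as an activator of the NuRD gene Chd4, was at -0.52 (SE 0.18, limma adjusted p = 0.071), with signals of 1441, 1469.9, 1308 and 989.6 in MYC-negative and 893, 959, 1175 and 638 in MYC-positive samples. It was lower in the MYC-positive sample of each pair, and it passed without pair 4 (adjusted p = 0.046, 0.046 to 0.80 over the alternatives). Zfp445, a KRAB protein that keeps the methylation of imprinted genes, was at -0.86 (SE 0.33, limma adjusted p = 0.092), and -0.43 without pair 4. Its signal was 1313, 1141, 1426 and 906 in MYC-negative and 689, 1193, 1058 and 204 in MYC-positive samples, and the low MYC-positive sample was that of pair 4. Zfp57, the other imprinting regulator, and Zfp42, known as the stem cell gene Rex1, were too dim to test, with signals of at most 19.0 and 10.9 on any array.

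Of other DNA-binding factors named for a known role, Zfp281, which encodes ZBP-99, was at 0.13 (SE 0.18, limma adjusted p = 0.65), Zfp148, which encodes ZBP-89, was at -0.30 (SE 0.18, limma adjusted p = 0.28), and Zfp384, which encodes the matrix-associated factor NMP4, was at -0.23 (SE 0.15, limma adjusted p = 0.29). The signal of Zfp281 was 1875, 1733, 2476 and 2551 in MYC-negative and 1739.6, 2317, 3472 and 2096 in MYC-positive samples, with no order between the groups, and it passed as a higher gene after median centring. Zfp263, a factor with SCAN and KRAB domains, had signals of 8211, 9295, 8202 and 13465 and 8026, 7817, 10628 and 9675, and a difference of -0.10 (SE 0.15, limma adjusted p = 0.69). Zfp131, of the BTB class, was at -0.02 (SE 0.16, limma adjusted p = 0.95). Zfp219 and Zfp335, the latter a cofactor of histone methyltransferase complexes, were at -0.57 (SE 0.48, limma adjusted p = 0.43) and -0.41 (SE 0.41, limma adjusted p = 0.52), and without pair 4 Zfp219 was at -1.03 and Zfp335 at -0.83. None of these 7 genes passed on the deposited scale.

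Zfp106, an RNA-binding protein, had signals of 7726, 8184, 8089 and 8043 in MYC-negative and 7611, 9196, 10172 and 6487 in MYC-positive samples, and its difference of 0.04 (SE 0.14, limma adjusted p = 0.86) had the smallest SE of the 113 genes. Zfp326, part of the DBIRD complex of splicing and elongation, was at -0.11 (SE 0.22, limma adjusted p = 0.76), and Zfp346, a double-stranded RNA-binding protein, at -0.10 (SE 0.30, limma adjusted p = 0.85). Zfp91, a ubiquitin ligase of the non-canonical NF-kB pathway, was at -0.20 (SE 0.19, limma adjusted p = 0.48), and Zfp451, a SUMO ligase, at -0.22 (SE 0.32, limma adjusted p = 0.66). Zfp110 and Zfp369, which encode partners of the neurotrophin receptor p75, were at -0.05 (SE 0.24, limma adjusted p = 0.91) and -0.10 (SE 0.24, limma adjusted p = 0.80). Zfp35 was at 0.20 (SE 0.20, limma adjusted p = 0.52) and Zfp365 at 0.05 (SE 0.31, limma adjusted p = 0.93). Zfp24, Zfp236, Zfp251 and Zfp317, named for their high signal, had differences of -0.33, -0.30, 0.07 and -0.36, with adjusted p of 0.17, 0.19, 0.79 and 0.17. The genes named for a known role were listed with earlier results of these data known. Of the 25 tested, 5 passed, all of them lower. These are 20% lower and 0% higher, against 11.5% and 11.2% of all genes. Of those not called, Zfp317 passed after quantile normalization (adjusted p = 0.048, 0.048 to 0.78 over the alternatives) and Zfp35 after median centring (0.041, 0.041 to 0.95), as a higher gene.

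Zinc finger genes often lie in clusters that arose by duplication, and 138 of the 139 members were found in the RefSeq gene table, of which 52 lay next to another member in the gene order of GRCm38.p6, with no other protein-coding gene between them, in 20 runs. Of the 38 tested among them, 3 fell and 1 rose, with a median difference of -0.31, and of the 75 others 9 fell and 1 rose, with a median of -0.22. These are 7.89% and 12% lower, against 11.5% of all genes, and 2.63% and 1.33% higher, against 11.2%. The run of Zfp54, Zfp51, Zfp53 and Zfp52 had differences of -0.96, -0.62, -1.79 and -0.31, all below 0, of which Zfp53 passed, and Zfp51 was at -0.29 without pair 4. The run of Zfp420, Zfp27, Zfp383 and Zfp74 was at -0.50, -0.78, -0.22 and -1.36, with none past the threshold, and Zfp74 was at -0.87 without pair 4. Zfp398 fell while its neighbour Zfp282 was at 0.59 (adjusted p = 0.34, and 0.19 without pair 4) and Zfp212 at -0.31. Duplicated genes can share sequence, so a probe set may read more than 1 of them: 10 of the 113 probe sets were of the types that Affymetrix marks as matching several transcripts or genes. With such probe sets left out of the whole table, 13 of 110 Zfp genes were lower and 2 higher, and all 14 genes named above as fallen or risen passed again. In that setting 11.8% of the Zfp genes were lower and 1.82% higher, against 12.1% and 9.89% of all genes.

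The probe sets of the Zfp genes gave lower signals than most, and the share of genes past the threshold changed with signal. Their median signal was 275, against 475 for all genes tested, and ranged from 18.9 to 9267. Genes tested were therefore divided by signal into 4 equal parts. In the dimmest, with signals up to 85.8, 1 of 25 Zfp genes was higher and 0 lower, against 3.16% and 6.28% of the other genes. In the next, up to 475, 1 of 43 was higher and 6 lower, or 2.33% and 14%, against 8.84% and 12.1%. In the third, up to 1769, 0 of 27 were higher and 4 lower, or 14.8%, against 15.1% and 16.4%. In the brightest, 0 of 18 were higher and 2 lower, or 11.1%, against 18.1% and 11.3%.

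Set to the signal distribution of the Zfp genes, the other genes had 10.6% higher and 11.7% lower, where the Zfp genes had 1.77% and 10.6%. The medians of the Zfp genes in the 4 parts were -0.28, -0.30, -0.31 and -0.22, while those of the other genes ran with signal from -0.22 through -0.15 and -0.03 to 0.07. The medians of the Zfp genes and the others were thus closest among dim genes and farthest apart among bright ones, and no test of the list was made.

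**Figure D4:**
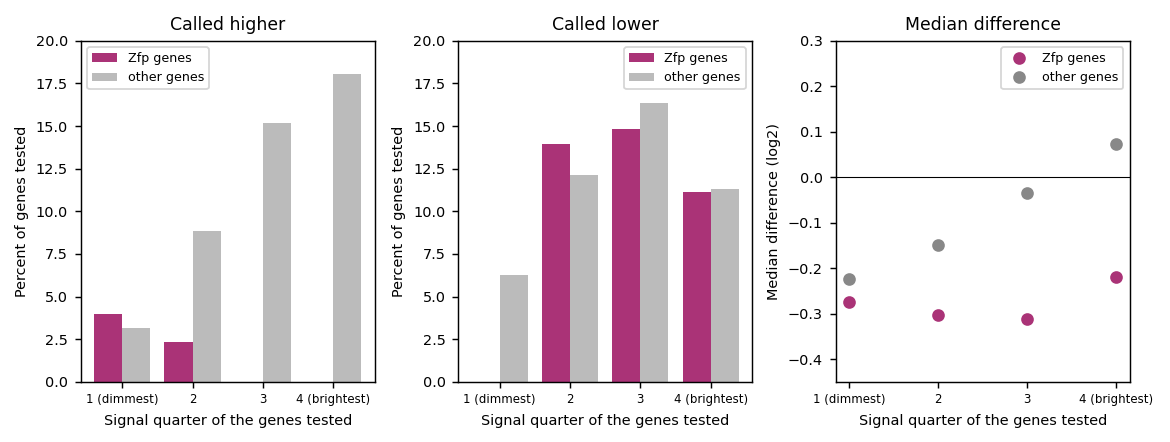
Percent of genes called higher (left) and lower (middle), and median log2 difference MYC-positive minus MYC-negative (right), for Zfp genes and other genes in 4 equal parts of the genes tested by mean signal. The Zfp genes lack the share of higher calls that grows with signal in other genes, reaching 18.1% in the brightest part, while their share of lower calls is 11.1% there against 11.3%.

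The direction of the group depended on the scaling between arrays. After quantile normalization 7 Zfp genes were higher and 14 lower, and with each array centred on its median signal 14 were higher and 6 lower, so that higher calls made up 14.3%, 33.3% and 70% of the calls under the 3 scalings, where over all genes they made up 49.4%, 57.2% and 85.4%. Centring raised every difference by 0.44 and quantile normalization raised the median of all genes by 0.15. The median of the Zfp genes was -0.08 after quantile normalization and 0.16 after centring, with 0.09 and 0.38 for all genes. Relative to all genes the Zfp genes lay below, by 0.21 on the deposited scale and 0.16 with quantiles. Centring shifts all genes of an array alike, so the gap of 0.21 could not change with it. Zfp318, Zfp395, Zfp53, Zfp90, Zfp319 and Zfp292 were lower under all 3 scalings, and Zfp2 and Zfp428 were higher under all 3. Zfp40, Zfp398, Zfp276, Zfp62, Zfp217 and Zfp329 did not pass after centring, and Zfp276 did not after quantile normalization.

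**Figure D5:**
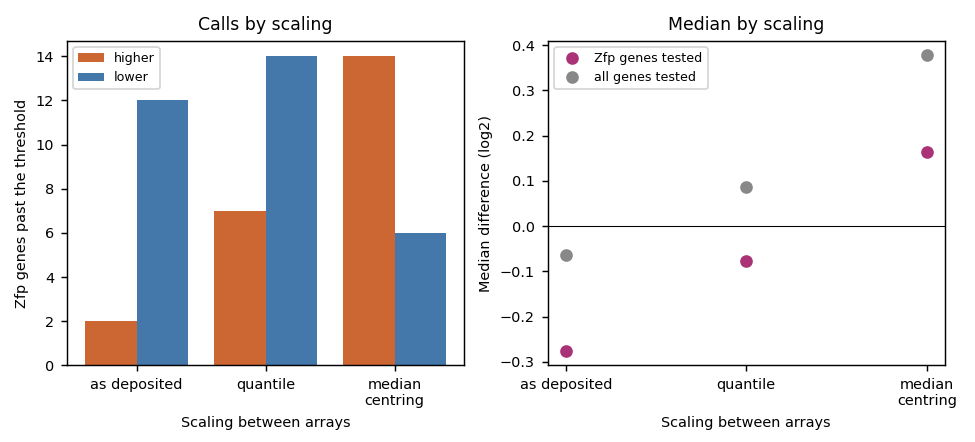
Number of Zfp genes past the threshold in each direction (left) and the median log2 difference of the 113 Zfp genes and of all genes tested (right) under 3 scalings between arrays. The calls turn from 12 lower and 2 higher to 6 lower and 14 higher. Of all genes, 4.65% were lower and 27.3% higher after centring. The Zfp median lies below that of all genes under each scaling, by a gap that centring cannot change.

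KRAB zinc finger proteins act through TRIM28 and a set of chromatin proteins, and of 33 genes of these co-repressors that were tested 4 were higher and 2 lower, against 11.2% and 11.5% of all genes, with a median of 0.13. Trim28, the scaffold, rose: its geometric mean signal was 2581 in MYC-negative samples and 4091 in MYC-positive ones, a difference of 0.66 (SE 0.17, limma adjusted p = 0.021). Setdb1, the histone methyltransferase that TRIM28 recruits, was at 0.03 (SE 0.25, limma adjusted p = 0.94). Its partner Atf7ip fell, at -1.40 (SE 0.32, limma adjusted p = 0.016), as did Tasor, a subunit of the HUSH silencing complex, at -0.91 (SE 0.17, limma adjusted p = 0.0071). The DNA methyltransferase gene Dnmt3a (1.05, adjusted p = 0.0087), the histone methyltransferase gene Suv39h2 (0.76, 0.035) and the histone deacetylase gene Hdac2 (0.74, 0.022) rose. With the mean over probe sets Hdac2 was at 0.15 and Dnmt3a at 0.32, neither past the threshold (adjusted p = 0.69 and 0.37), and without pair 1 none of the 6 passed in limma, with 5 of the list higher and 2 lower at an unadjusted p under 0.05. The split of this list turned with the scaling too, with 7 higher and 5 lower after quantile normalization and 17 higher and 1 lower after median centring. Of all genes, 15.2% were higher and 11.3% lower after quantile normalization, and 27.3% and 4.65% after median centring. Over the alternatives adjusted p lay at 0.0020 to 0.11 for Trim28, 0.00061 to 0.069 for Atf7ip, 0.0012 to 0.092 for Tasor, 6.9e-05 to 0.37 for Dnmt3a, 0.00036 to 0.18 for Suv39h2 and 0.00068 to 0.69 for Hdac2.

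The 26 members not tested had mean signals from 2.34 to 18.5, under the filter level of 18.7. Of the 113 tested, 1, Zfp449, had a group mean under that level, and it did not pass (difference -0.29, adjusted p = 0.84). For 52 tested members other probe sets also passed the filter: in 32 all of them had the sign of the probe set used, and in 20 at least 1 had the opposite sign, among them the called genes Zfp276, Zfp329 and Zfp398.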

How the data were processed

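Per the labels' protocols, amplified cDNA from 5 to 20 ng of total RNA was hybridised to Affymetrix mouse expression arrays, 4 per group. The authors deposited an intensity per probe set, on a linear scale. MAS5 made it, per the submitters' processing notes. Its version is not given in the sources used here, nor is the target of its scaling. Genes came from the platform annotation: 34945 of 45056 probe sets had 1 gene, 932 several, 9160 none and 19 were controls. Precision is limited by the number of arrays.

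Values below 1 were raised to 1 before log2. Probe sets above the 40th percentile of mean log2 (a signal of 18.7) were kept, and the one with the highest mean was used per gene. limma 3.58.1 in R 4.3.3 fitted group with pair as a block (lmFit, eBayes with intensity trend, 3 residual degrees of freedom), with Benjamini-Hochberg adjustment over 11754 genes, 2-sided, called at adjusted p under 0.05. The procedure was tested on simulated data. Pairs are those the sample descriptions name; deviations from group means correlated within pairs at 0.26, 0.17, 0.088 and 0.12.

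Named genes were the called members of each direction with the same sign in all pairs (at most 12), the 10 with the highest signal, 32 listed for a known role (27 on the array, 25 tested), and of 37 co-repressor entries Trim28, Setdb1 and those called. Members and lists were chosen with earlier results of these data known. A division by KRAB domain, planned from protein sequence, was not analysed here.

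Alternatives were quantile normalization, median centring, a floor of 32, no filter, a 60th percentile filter, the mean over probe sets, plain probe sets only, no pair block, no trend, and each pair left out.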

Additional observations from a re-analysis of the deposited data

Results flagged for a closer look

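Among 76 groups of 4 arrays checked for the named Zfp genes, 3 held an array far from the other 3 of its group, and chance flags about 1 in 20 such groups. Zfp53 had a signal of 84.8 on the MYC-positive array of pair 4, where the other MYC-positive arrays had 583 to 706. Zfp2 had 41.2 on the MYC-positive array of pair 3, where the others had 64.0 to 69.4. Zfp398 had 308 on the MYC-negative array of pair 4, where the others had 529 to 568.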

How the results depend on the processing

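The number of Zfp genes higher, 2 in the fit reported, was 7 with quantile normalization, 14 with median centring, 1 with a signal floor of 32, 0 of 139 with no filter, 1 of 87 with a 60th percentile filter, 1 with no replicate block and 1 with no intensity trend, and 0 to 3 when each pair was left out. Where limma gave 0, the counts higher at an unadjusted p under 0.05 were 7 with no filter, 3 without pair 1 and 4 without pair 2. The number lower, 12 in the fit reported, was 6 after median centring, 7 with no replicate block, 7 with no intensity trend, and 1 to 20 when each pair was left out. The share of all genes called lower moved as well, from 11.5% to 4.65%, 7.67% and 6.56% in those settings and 2.99% to 17.3% with a pair left out. The share of all genes called higher went from 11.2% to 15.2% with quantile normalization and 27.3% with median centring. It was 9.41% with a signal floor of 32, 6.49% with no filter and 15.1% with a 60th percentile filter. With no replicate block it was 8.98%, with no intensity trend 6.26%, and with a pair left out 3.43% to 14.8%. The median difference of the Zfp genes was -0.078 with quantile normalization and 0.16 with median centring, and moved by less than the spread between pairs under the other alternatives. The median relative to all genes was below 0 under all 13 alternatives. Median centring, no replicate block and no intensity trend cannot change it. For co-repressor genes the counts higher, 4 in the fit reported, were 7 with quantile normalization, 17 with median centring, 2 with the mean over probe sets, 1 with no intensity trend and 0 to 7 when each pair was left out. The counts lower, 2 in the fit reported, were 5, 1 and 4 in the first 3 of these settings, 1 with a signal floor of 32, 4 with plain probe sets only, 1 with no replicate block, 0 with no intensity trend and 0 to 2 when each pair was left out. Of all genes, 9.93% were higher and 13.5% lower with the mean over probe sets. The share of all genes lower was 11.3% with quantile normalization, 9.13% with a signal floor of 32 and 12.1% with plain probe sets only. Where limma gave 0 co-repressor genes, the unadjusted counts were 5 and 6 higher without pairs 1 and 2, 2 lower without pair 1 and 2 lower with no intensity trend. The cause was not tested. In the fit with no replicate block, 8 of the 14 genes kept their call and 0 were added. A signal near background limits what can be said of the dimmest genes, Zfp2 among them.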
